A study of Homo sapiens
Mus musculus with 16 samples.

Results

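Nab-paclitaxel given alone was compared with vehicle in xenograft tumours, in 8 of the 16 libraries of the series: the 4 titled Abraxane and the 4 titled Vehicle. MDA-MB-231 cells, a human breast cancer line, had been injected, 2 M cells in 50 µl of PBS and Matrigel, into the mammary fat pads of nude mice of the Balb/c strain, and each tumour was excised at day 50. The nab-paclitaxel group (n = 4 mice) received 30 mg/kg by intraperitoneal injection on days 15, 22 and 29, so the tumours were taken 21 days after the last dose. The vehicle group (n = 4 mice) received the vehicle only. The other libraries, from tumours given phenelzine at 40 mg/kg daily from day 15 with nab-paclitaxel (the combination, n = 4) or without it (n = 4), entered the fit and serve below as a second set. The ages of the mice are not given in the labels, and every tumour came from the same cell line.

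Nab-paclitaxel is paclitaxel bound to albumin. Paclitaxel binds the beta-tubulin of microtubules and keeps them from disassembling, which holds dividing cells in mitosis. MDA-MB-231 is a mesenchymal line that lacks the oestrogen and progesterone receptors and HER2. Nude mice have no thymus and so lack mature T cells, while macrophages, neutrophils, NK cells, fibroblasts and vessels of the host remain. In such a tumour the cancer cells are human and the stroma is mouse, so human gene counts were read as the tumour compartment and mouse gene counts as the host compartment.

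The files list genes by Ensembl ID only, and no table at hand paired these IDs with symbols. The changed genes are therefore described by their order of change, level and pattern, with no name or function, and the labelled cell line could not be checked against its marker genes. Human genes that passed the test are called rise 1 to rise 20 and fall 1 to fall 10, from the largest fitted change to the smallest.

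Levels are given as CPM, counts scaled to each library's TMM-adjusted total of that species. Human totals were 15.4 to 32.7 M counts with nab-paclitaxel and 23.7 to 33.5 M with vehicle. Mouse totals were 8.53 to 22.9 M with nab-paclitaxel and 5.21 to 14.4 M with vehicle. The mouse share of all counts was 59.7%, 23.4%, 21.05% and 41.9% in nab-paclitaxel 1 to 4, against 13.8%, 37.8%, 19.0% and 13.6% in vehicle 1 to 4. A change within one species' counts cannot tell fewer cells of a type from less RNA per cell. The series design counts 4 mice in each group of 4 libraries, which were taken as 1 mouse each, so p-values measure the spread between mice.

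In the tumour compartment 20 human genes rose and 10 fell with nab-paclitaxel, of 18131 tested (edgeR quasi-likelihood test, adjusted p under 0.05), which is 0.110% and 0.0552% of the genes, 0.165% in all. At an unadjusted p under 0.05 there were 3679 (20.3%), 2228 of them higher and 1451 lower. In all 30 the 4 nab-paclitaxel libraries lay on one side of the 4 vehicle libraries. The test that called these genes used the same libraries, so this is a description. Over all human genes tested, such a separation of the 2 groups occurred upwards in 1390 genes (7.67%) and downwards in 1354 (7.47%), 15.1% in all. Of the genes that rose, 17 changed at least 2-fold and 14 over 4-fold by the fitted value, and of those that fell 6 changed at least 2-fold and 4 over 4-fold. Across all human genes the median absolute log2 fold change was 0.29, with 1924 genes over 2-fold higher by the fitted value and 431 over 2-fold lower.

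The largest rises were in genes near 0 in vehicle tumours. Rises 1, 2, 3, 4, 5 and 8 passed the filter on low counts only through libraries from tumours given the taxane, so they could enter the test only by being higher there, and their p-values are given as a description. ENSG00000137868 (rise 1) stood at 259, 12.1, 21.6 and 168 CPM in nab-paclitaxel 1 to 4, against 0.0968, 0.396, 0.114 and 0.180 CPM in vehicle 1 to 4. Every treated tumour was at least 12 CPM and every vehicle tumour below 1 CPM, but the treated tumours themselves spread 21.4-fold. The means were 115 ± 119 and 0.197 ± 0.138 CPM (SD, n = 4 each), and the change of nab-paclitaxel over vehicle was fitted at 9.22 ± 1.63 on the log2 scale (SE; adjusted p = 0.0426, edgeR). ENSG00000134326 (rise 3) stood at 9.81, 0.906, 2.67 and 8.22 CPM with nab-paclitaxel, against 0, 0.0879, 0 and 0 CPM with vehicle, where the 4 libraries held 2 counts in all. Its ratio of summed counts over library size was 259-fold, with a 95% exact counting interval of 71.4 to 2147 (edgeR adjusted p = 0.0234 in the fit).

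The genes called rise 5, 6 and 7 had the same order of libraries as rise 1. Rise 5 stood at 88.1, 4.28, 10.3 and 47.7 CPM with nab-paclitaxel and at 0.210 to 0.323 CPM with vehicle, fitted at 7.22 ± 1.34 on the log2 scale (SE; adjusted p = 0.0467, edgeR). Rise 6 stood at 112, 7.63, 12.7 and 54.9 CPM with nab-paclitaxel and at 0.420 to 1.28 CPM with vehicle, fitted at 5.93 ± 1.08 on the log2 scale (SE; adjusted p = 0.0426, edgeR). Rise 7 stood at 54.9, 3.91, 7.59 and 22.8 CPM with nab-paclitaxel and at 0.308 to 0.613 CPM with vehicle, fitted at 5.66 ± 1.02 on the log2 scale (SE; adjusted p = 0.0426, edgeR). In each of these genes nab-paclitaxel 1 was highest, then 4, then 3, then 2, and the lowest treated tumour was still above the highest vehicle tumour. Rise 9 was at 10.5, 1.22, 4.01 and 12.2 CPM with nab-paclitaxel and 0.266 to 0.440 CPM with vehicle, here with tumour 4 highest.

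Rise 2, 4 and 8 had means under 5 CPM even with the drug. Rise 2 was listed at 0 in all 4 vehicle libraries and at 3.69, 1.81, 1.55 and 1.55 CPM with nab-paclitaxel, at least 19.9-fold higher against a floor of 3 counts per vehicle library. Rise 4 was also at 0 in all 4 vehicle libraries and at 0.476, 0.625, 0.728 and 1.51 CPM with nab-paclitaxel, at least 7.72-fold higher against the same floor. Rise 8 averaged 1.06 CPM with nab-paclitaxel, and the 4 vehicle libraries held 3 counts of it in all, a ratio of 35.3 (95% exact counting interval 11.8 to 174).

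The rises from 10 onwards were more even across the treated tumours. Rise 10 stood at 83.1, 50.3, 74.9 and 105 CPM with nab-paclitaxel, against 7.10, 7.47, 2.43 and 3.63 CPM with vehicle, fitted at 3.93 ± 0.683 on the log2 scale (SE; adjusted p = 0.0414, edgeR). Rise 11 averaged 25.0 ± 7.62 CPM with nab-paclitaxel and 2.42 ± 0.956 CPM with vehicle, and rise 12 averaged 15.2 ± 6.58 and 1.66 ± 0.589 CPM (SD, n = 4 each). Rise 13 was at 4.82, 6.53, 6.65 and 6.71 CPM with nab-paclitaxel, against 0.677, 1.28, 0.760 and 0.450 CPM with vehicle, fitted at 2.97 ± 0.406 on the log2 scale (SE; adjusted p = 0.0157, edgeR). Nab-paclitaxel 1 was its lowest treated library, as it was in rises 4 and 18.

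Rises 17 and 19 were in genes expressed at high level in both groups. Rise 17 stood at 488, 286, 378 and 469 CPM with nab-paclitaxel, against 189, 183, 136 and 128 CPM with vehicle, fitted at 1.35 ± 0.250 on the log2 scale (SE; adjusted p = 0.0467, edgeR). Rise 19 stood at 168, 128, 169 and 158 CPM with nab-paclitaxel, against 85.6, 83.8, 78.4 and 109 CPM with vehicle, fitted at 0.81 ± 0.133 on the log2 scale (SE; adjusted p = 0.0372, edgeR). The remaining rises, 14, 15, 16, 18 and 20, had log2 fold changes of 2.06, 1.60, 1.43, 0.97 and 0.75, with means of 9.20 to 28.3 CPM with nab-paclitaxel and 2.22 to 15.8 CPM with vehicle.

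The genes that fell were mostly well expressed in vehicle tumours. ENSG00000204389 (fall 4) stood at 34.3, 55.7, 32.3 and 22.8 CPM with nab-paclitaxel, against 251.2, 198, 171 and 167 CPM with vehicle. All 4 treated tumours were below 60 CPM and all 4 vehicle tumours above 160 CPM. The means were 36.3 ± 13.9 and 197 ± 38.9 CPM (SD, n = 4 each), fitted at -2.44 ± 0.367 on the log2 scale (SE; adjusted p = 0.0234, edgeR). Fall 5 stood at 49.8, 100.4, 71.1 and 55.1 CPM with nab-paclitaxel, against 353, 259, 230 and 188 CPM with vehicle, fitted at -1.90 ± 0.275 on the log2 scale (SE; adjusted p = 0.0229, edgeR). Fall 6 stood at 18.7, 40.1, 33.1 and 20.04 CPM with nab-paclitaxel, against 132, 110, 73.5 and 85.8 CPM with vehicle, fitted at -1.84 ± 0.289 on the log2 scale (SE; adjusted p = 0.0322, edgeR). In each of these 3 genes nab-paclitaxel 2 was the treated library nearest to vehicle.

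ENSG00000189367 (fall 3) was less abundant, at 1.01, 1.91, 0.668 and 1.43 CPM with nab-paclitaxel, against 6.00, 11.8, 3.04 and 9.47 CPM with vehicle, fitted at -2.59 ± 0.439 on the log2 scale (SE; adjusted p = 0.0372, edgeR). Fall 1 and fall 2 nearly vanished from the treated libraries. Fall 1 was at 0, 0, 0 and 0.0794 CPM with nab-paclitaxel, 2 counts in all, against 0.809 to 1.19 CPM with vehicle, a ratio of 49.0 in the direction of vehicle (95% exact counting interval 13.2 to 410). Fall 2 was at 0 to 0.159 CPM with nab-paclitaxel and 0.722 to 1.83 CPM with vehicle. Falls 1 and 2 passed the filter on low counts only through libraries from tumours without the taxane.

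Falls 7 to 10 were small and tight changes in genes that stayed expressed. Fall 7 stood at 332, 426, 389 and 363 CPM with nab-paclitaxel, against 672, 607, 678 and 640 CPM with vehicle, fitted at -0.78 ± 0.139 on the log2 scale (SE; adjusted p = 0.0426, edgeR). Fall 10 stood at 181, 198, 160 and 169 CPM with nab-paclitaxel, against 291, 251.3, 283 and 262 CPM with vehicle, fitted at -0.62 ± 0.105 on the log2 scale (SE; adjusted p = 0.0372, edgeR). Falls 8 and 9 averaged 20.97 ± 1.53 and 47.3 ± 3.33 CPM with nab-paclitaxel, against 34.7 ± 1.22 and 78.1 ± 12.4 CPM with vehicle (SD, n = 4 each).

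**Figure D1:**
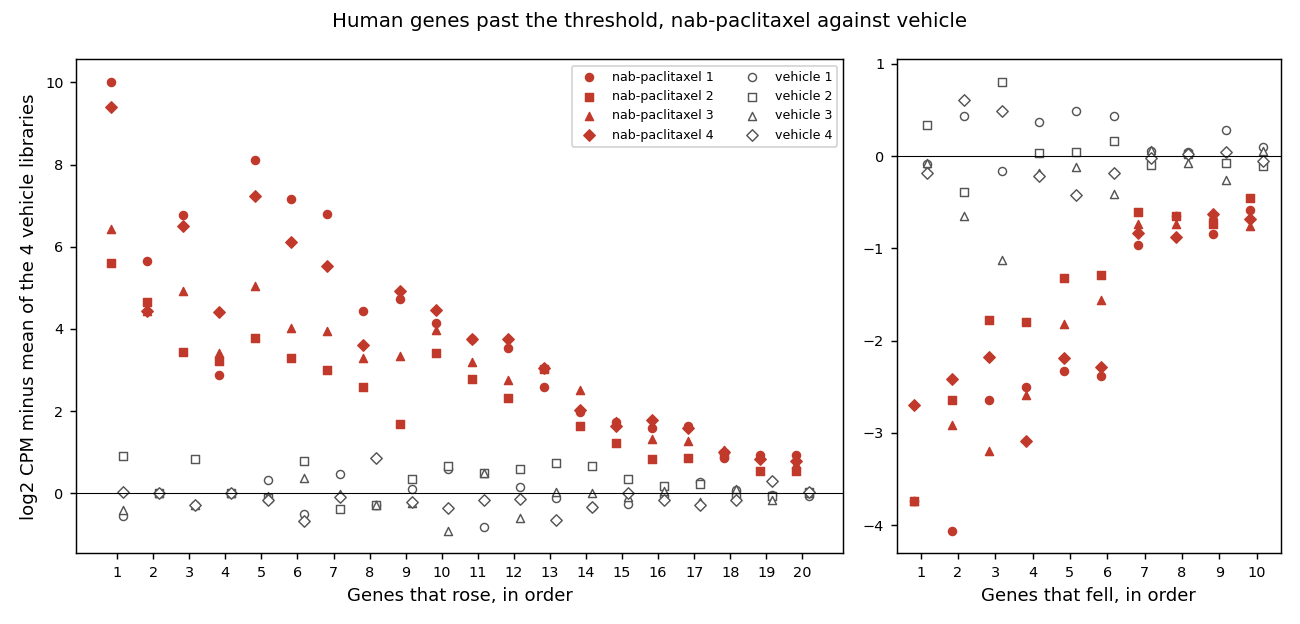
Level of each human gene past the threshold in every library, as log2 CPM minus the mean of the 4 vehicle libraries (y axis); the x axis gives the 20 genes that rose and the 10 that fell in order of fitted change, filled red symbols are nab-paclitaxel 1 to 4 and open grey symbols vehicle 1 to 4. The treated libraries are widely spread in several of the first 9 rises, with tumours 1 and 4 at the top, and close together in the later rises and in falls 7 to 10; libraries at 0 CPM coincide.

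The treated tumours did not lie equally far from vehicle. Nab-paclitaxel 1 and 4 were the highest 2 treated libraries in 13 of the 20 genes that rose, and nab-paclitaxel 2 was the lowest in 16. Among the 10 that fell, nab-paclitaxel 2 was the highest treated library, and so the nearest to vehicle, in 7. The same order held across all human genes: the median absolute log2 difference from the vehicle libraries was 0.576, 0.227, 0.240 and 0.371 in nab-paclitaxel 1 to 4. Vehicle libraries, each set against the other 3, gave 0.195 to 0.230. By these values nab-paclitaxel 2 lay within the range of the vehicle libraries and 3 just above it, while 4 and 1 lay farther. Treated libraries were set against all 4 vehicle libraries and vehicle libraries against 3, so the close placements of nab-paclitaxel 2 and 3 are not settled.

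In nab-paclitaxel 1 to 4, 3196, 808, 1288 and 2340 human genes were over 2-fold above the vehicle median and 2239, 638, 550 and 1006 over 2-fold below it, against 571 to 708 above and 669 to 991 below in the vehicle libraries. The median SD of a human gene's log2 CPM was 0.35 among nab-paclitaxel tumours and 0.24 among vehicle tumours, and 66.9% of genes had the larger SD with nab-paclitaxel. Without nab-paclitaxel 1 the median SD was 0.26 and that share 54.1%, and this library also had the fewest human counts of the 8. The part of depth in that spread was not tested.

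**Figure D2:**
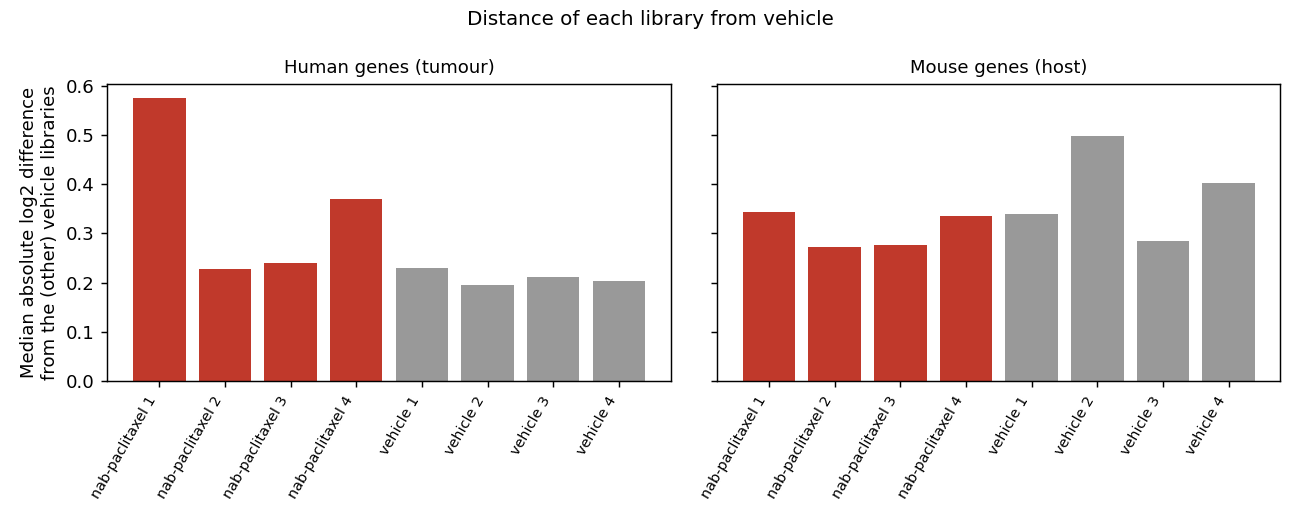
Median absolute log2 difference of each library from the vehicle libraries (bars, y axis), for human genes on the left and mouse genes on the right; each vehicle library is set against the other 3. Among human genes nab-paclitaxel 1 and 4 stand above all vehicle libraries at 0.576 and 0.371, and among mouse genes vehicle 2 is the highest at 0.498.

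The 2 libraries farthest from vehicle were also those with the highest mouse shares in the treated group, 59.7% and 41.9%. When the share was added to the fit as a covariate, 17 human genes passed, of which 12 were among the 30, 8 rises and 4 falls. Kept and lost calls did not follow how far the fitted change moved. Rises 1 and 6 kept their call with log2 fold changes of 7.07 and 4.32 beside the covariate, against 9.22 and 5.93 without it. Rises 4 and 14 lost theirs at 7.36 and 1.98, against 7.49 and 2.06, and falls 3 and 10 at -2.57 and -0.60, against -2.59 and -0.62. Rise 4 was at 0 in every vehicle library, so its fitted values depend on the prior count. Within the treated group the 2 highest shares went with the 2 highest levels of ENSG00000137868, 259 and 168 CPM. Within the vehicle group, with 21 counts of it in all, the highest share, 37.8%, went with the highest level, 0.396 CPM. Across the groups the order differed, as nab-paclitaxel 3, with a share of 21.05%, stood at 21.6 CPM. It also differed among combination 1 to 4, where shares of 71.2%, 47.4%, 55.9% and 18.6% went with 124, 2.11, 259 and 8.97 CPM. Among phenelzine 1 to 4 the orders matched, with shares of 9.97%, 15.2%, 9.25% and 16.1% and levels of 0.213, 0.264, 0.120 and 0.266 CPM. The part of the mouse share in the level of this gene was not tested.

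The count of calls changed when any 1 library was left out. Such a fit has fewer libraries, and the part of this in the lost calls was not tested. Without nab-paclitaxel 1, 3 genes passed as higher and 1 as lower; without nab-paclitaxel 3, 4 as higher and 0 as lower; and without nab-paclitaxel 4, 0 genes (edgeR, with 2714 at an unadjusted p under 0.05). Without vehicle 1 or vehicle 4 the count was also 0 (3071 and 3128 at an unadjusted p under 0.05), without vehicle 2 it was 3, and without vehicle 3 it was 8. Each of the 30 calls was kept in 1 to 5 of these 8 fits, and rises 12, 13 and 15 in 5. The direction of all 30 was the same in every one of the 8 fits. In these genes the groups did not overlap, so leaving out libraries could hardly reverse a sign. Sizes moved. Without nab-paclitaxel 1 the log2 fold changes of rises 1, 5, 6 and 7 were 8.46, 6.39, 5.04 and 4.71, against 9.22, 7.22, 5.93 and 5.66 with all libraries. Those of rise 3 without vehicle 2 (10.19), rise 8 without vehicle 4 (7.79) and fall 1 without nab-paclitaxel 4 (-7.65) moved more, each in a group then at 0 in every library, so these fitted values depend on the prior count. Without both nab-paclitaxel 1 and 4, 0 of the 30 calls were kept and 2 other genes passed, while all 30 kept their sign, with a median log2 fold change of 3.02 for the 20 rises, against 3.65 with all libraries, and -1.52 for the 10 falls, against -1.87.

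Leaving out nab-paclitaxel 2 had the opposite effect on the count. In that fit 499 human genes were higher and 204 lower (2.67% and 1.09% of 18666 tested), all 30 calls among them. In the genes then called higher, the median log2 difference from the vehicle mean was 3.11, 1.47 and 2.53 in nab-paclitaxel 1, 3 and 4, and 0.76 in the library left out. In the genes called lower it was -1.03, -0.64 and -0.89 in nab-paclitaxel 1, 3 and 4, and -0.34 in nab-paclitaxel 2. Nab-paclitaxel 2 was itself above every vehicle library in 374 of the 498 genes called higher that were also tested with all libraries (75.1%), and below every one in 159 of the 204 called lower (77.9%). Over all human genes it was above every vehicle library in 23.4% and below every one in 22.1%. The genes were chosen against the same 4 vehicle libraries, so these shares are a description. DESeq2 on all libraries called 1022 human genes higher and 419 lower (5.64% and 2.31%), and voom with quality weights 335 and 264 (1.85% and 1.46%). All 30 calls were among those of DESeq2 and 28 among those of voom. Rises 1 and 5 missed the threshold in voom (adjusted p = 0.0746 and 0.0542), with log2 fold changes of 7.69 and 5.88.

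The direction of the differences varied with the level of a human gene, given here as a description over classes of mean CPM in all 16 libraries. Among the 4378 genes at 1 to 10 CPM, all 4 treated libraries lay above all 4 vehicle libraries in 11.6% and below in 3.93%. Among the 2402 genes at 100 CPM or more it was 4.08% above and 16.3% below. Genes under 1 CPM went with the first class (8.88% above, 2.21% below) and genes at 10 to 100 CPM lay between (5.99% above, 9.11% below). CPM are shares of a library's total, so the classes are not independent of each other. The mouse share was 21.05% to 59.7% with nab-paclitaxel and 13.6% to 37.8% with vehicle. Its part in this pattern was not tested.

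**Figure D3:**
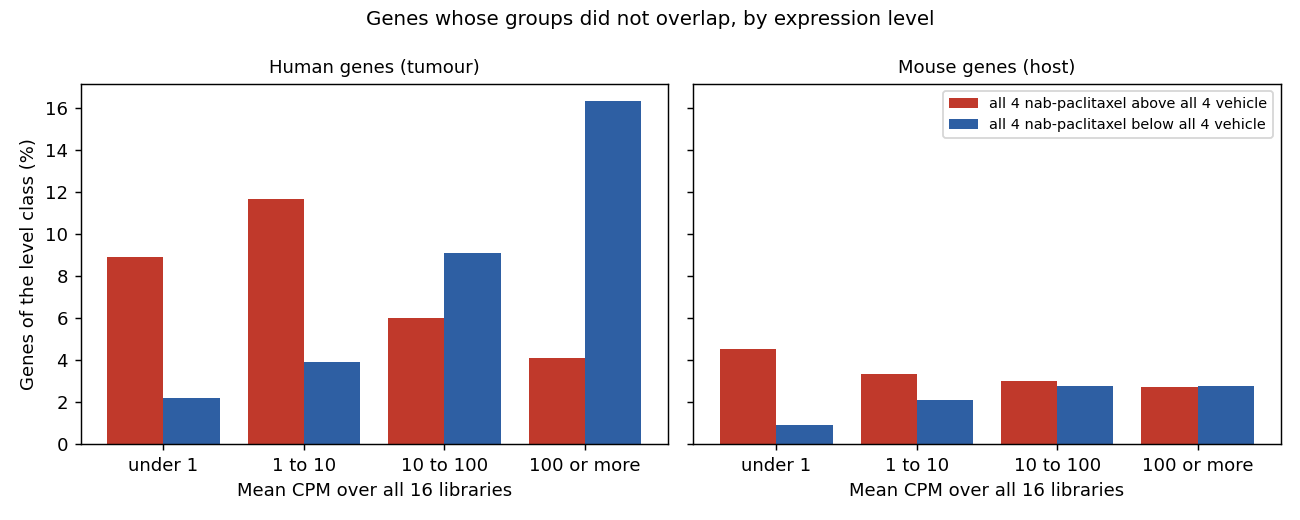
Share of genes (y axis, percent of the class) in which all 4 nab-paclitaxel libraries lay above (red) or below (blue) all 4 vehicle libraries, by mean CPM over all 16 libraries (x axis), for human and mouse genes. In human genes the share above is 11.6% at 1 to 10 CPM and the share below 16.3% at 100 CPM or more; in mouse genes both stay under 5%.

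Some human genes were recorded in one group only. Of all 58051 IDs listed, 106 were at 0 in every vehicle library and had a count in every nab-paclitaxel library, and 24 showed the reverse. Of the 106, 16 averaged at least 1 CPM with nab-paclitaxel and the highest averaged 14.3 CPM, while the 24 averaged at most 0.166 CPM with vehicle. The human totals of the vehicle libraries ran from 23.7 M up and those of the treated libraries from 15.4 M up. The part of the mouse share in these counts was not tested.

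The same drug was also given on top of phenelzine, in 8 libraries that share none with the main comparison. All 30 genes had the same sign in the combination against phenelzine, as did 75.4% of all human genes tested. Of the 20 rises 15, and of the 10 falls 6, passed the threshold there too (edgeR adjusted p under 0.05). Of all human genes 1.65% rose there and 0.623% fell (2.27% in all). Among those that passed, rises 1, 2, 4 and 5 had met the filter on low counts only through libraries from tumours given the taxane. Falls 1 and 2 had met it only through libraries without the taxane. That filter used the libraries of both sets, and both tests came from 1 fit with a shared estimate of each gene's spread. The counts of 15 and 6 are therefore a description. With each set fitted on its own, 0 human genes passed in both in the same direction, against 21 in the joint fit. The mouse share was 18.6% to 71.2% with the combination and 9.25% to 16.1% with phenelzine, so the groups of this set did not overlap in mouse share. With the share as covariate, 2 human genes passed in both sets in the same direction, against 21 without it. ENSG00000137868 stood at 124, 2.11, 259 and 8.97 CPM in combination 1 to 4, against 0.213, 0.264, 0.120 and 0.266 CPM in phenelzine 1 to 4. ENSG00000204389 stood at 32.5, 32.1, 40.6 and 66.7 CPM with the combination, against 148, 99.95, 206 and 60.8 CPM with phenelzine, where phenelzine 4 overlapped the combination (log2 fold change -1.58, SE 0.357, edgeR adjusted p = 0.0409). Rise 10 had the larger fitted change on top of phenelzine, at 223, 19.3, 77.6 and 72.8 CPM with the combination and 0.457 to 3.40 CPM with phenelzine, fitted at 5.33 ± 0.733 on the log2 scale (SE; adjusted p = 0.00835, edgeR).

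Other genes changed less, or did not pass, on top of phenelzine. ENSG00000189367 stood at 7.77, 6.57, 3.47 and 8.40 CPM with the combination, against 6.61, 7.15, 9.77 and 4.76 CPM with phenelzine, fitted at -0.11 ± 0.408 on the log2 scale (SE; adjusted p = 0.894, edgeR). The difference between its effects without and with phenelzine had an unadjusted p of 0.000797 and an edgeR adjusted p of 0.99997. ENSG00000134326 stood at 4.21, 0.539, 2.97 and 0.925 CPM with the combination, against 0.396, 0.381, 0.0899 and 0.233 CPM with phenelzine, fitted at 2.92 ± 0.845 on the log2 scale (SE; adjusted p = 0.0742, edgeR). Rises 8, 9, 16 and 20 and falls 7, 9 and 10 also missed the threshold there, with adjusted p-values of 0.0594 to 0.273. For none of the 30 genes did the difference between the effects without and with phenelzine pass (edgeR, lowest adjusted p 0.99997, with 5 at an unadjusted p under 0.05).

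**Figure D4:**
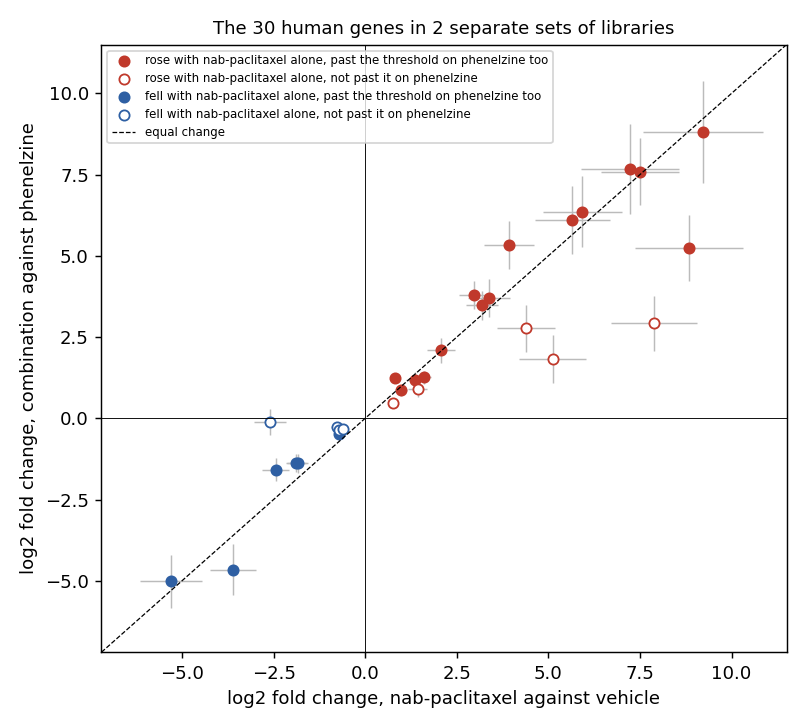
Log2 fold change of the 30 human genes with nab-paclitaxel against vehicle (x axis) and with the combination against phenelzine (y axis), with standard errors as grey bars; red genes rose and blue genes fell with nab-paclitaxel alone, filled symbols also passed the threshold on phenelzine, and the dashed line marks equal change. All points lie on the same side of 0 on both axes, with 15 of 20 red and 6 of 10 blue symbols filled. Filled symbols include rises 1, 2, 4 and 5, which met the filter on low counts only through libraries with the taxane. They also include falls 1 and 2, which met it only through libraries without the taxane, so these counts are a description.

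In the host compartment 0 of 15074 mouse genes passed the threshold (edgeR, lowest adjusted p = 0.0524), with 764 higher (5.07%) and 1035 lower (6.87%) at an unadjusted p under 0.05, 11.9% in all. DESeq2 called 121 higher and 100 lower (0.803% and 0.663%), and voom with quality weights called 1 gene (0.00663%), which was higher. The 4 treated libraries lay above the 4 vehicle libraries in 463 mouse genes (3.07%) and below in 383 (2.54%), 5.61% in all. The median absolute log2 fold change was 0.25.

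Mouse genes are described here if they averaged at least 5 CPM where they were higher and did not overlap between groups. Among these, the 10 with the lowest p-values in each direction are named higher 1 to 10 and lower 1 to 10 in that order. Genes outside this rule are not shown, whatever their p-values. Higher 1 stood at 19.6, 25.4, 45.9 and 37.8 CPM with nab-paclitaxel, against 6.26, 5.74, 11.48 and 7.38 CPM with vehicle, fitted at 2.06 ± 0.299 on the log2 scale (SE; adjusted p = 0.0524, edgeR). Higher 2 stood at 148, 149, 247.998 and 272 CPM with nab-paclitaxel, against 68.9, 33.7, 30.6 and 46.7 CPM with vehicle, fitted at 2.19 ± 0.323 on the log2 scale (SE; adjusted p = 0.0524, edgeR). Higher 3 had the largest difference of the 20, at 52.9, 49.7, 76.7 and 99.4 CPM with nab-paclitaxel, against 2.51, 6.95, 0.766 and 6.58 CPM with vehicle, fitted at 4.01 ± 0.655 on the log2 scale (SE; adjusted p = 0.0811, edgeR). None of the 3 was highest in nab-paclitaxel 1, and their highest treated library was 1.84 to 2.34 times the lowest. Higher 1 and higher 2 both passed with RLE scaling (edgeR adjusted p = 0.0495), without a filter (0.0261) or with a filter at 5 CPM (0.0423). DESeq2 called all 20 of these mouse genes, and the single call of voom was higher 2 (adjusted p = 0.0157).

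Higher 4 was an abundant transcript, at 287, 237, 269 and 298 CPM with nab-paclitaxel, against 125.5, 108, 142 and 164 CPM with vehicle, fitted at 1.01 ± 0.166 on the log2 scale (SE; adjusted p = 0.0811, edgeR). Higher 5 stood at 37.4, 21.8, 22.2 and 32.2 CPM with nab-paclitaxel and at 2.62 to 6.89 CPM with vehicle. Higher 6 to 10 averaged 18.4 to 29.0 CPM with nab-paclitaxel and 4.38 to 10.9 CPM with vehicle, with edgeR adjusted p-values of 0.138 to 0.171.

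The 10 on the lower side had edgeR adjusted p-values of 0.138 to 0.221. Lower 1 stood at 1.03, 2.70, 0.941 and 1.38 CPM with nab-paclitaxel, against 4.803, 8.23, 7.81 and 6.18 CPM with vehicle, fitted at -2.17 ± 0.399 on the log2 scale (SE; adjusted p = 0.138, edgeR). Lower 4 stood at 49.4, 94.97, 82.0 and 55.0 CPM with nab-paclitaxel, against 491, 182, 230 and 456 CPM with vehicle, fitted at -2.27 ± 0.467 on the log2 scale (SE; adjusted p = 0.190, edgeR). Lower 5 and lower 10 were small and even differences: lower 5 averaged 31.3 ± 1.57 CPM with nab-paclitaxel and 49.8 ± 5.83 CPM with vehicle, and lower 10 averaged 168 ± 5.18 and 248.8 ± 51.8 CPM (SD, n = 4 each).

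**Figure D5:**
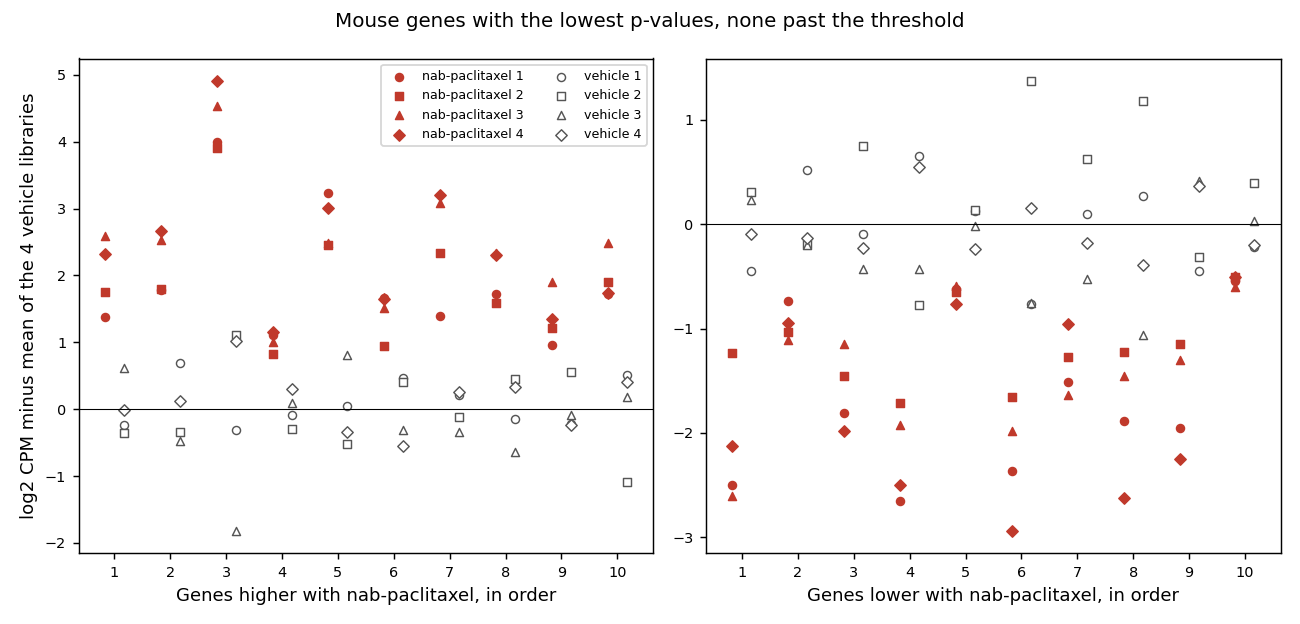
Level of 20 mouse genes in every library, as log2 CPM minus the mean of the 4 vehicle libraries (y axis). They had the lowest p-values in each direction among genes averaging at least 5 CPM where higher, with no overlap between groups. The x axis gives the 10 genes higher and the 10 lower with nab-paclitaxel in order of p-value. Filled red symbols are nab-paclitaxel 1 to 4 and open grey symbols vehicle 1 to 4. The groups do not overlap, by the rule that chose the genes, and none of the 20 passed the threshold in edgeR.

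On top of phenelzine, 9 of the 10 higher and 9 of the 10 lower mouse genes had the same sign in the combination against phenelzine, with edgeR adjusted p-values of 0.142 to 0.941. Of all mouse genes 1 passed in that comparison (0.00663%), a lower one. Higher 3 stood at 9.52, 17.5, 67.2 and 21.8 CPM with the combination and at 2.39 to 5.02 CPM with phenelzine. Higher 10 and lower 1 had log2 fold changes of -0.06 and 0.30 there, opposite in sign to those with nab-paclitaxel alone. The difference between the effects without and with phenelzine passed in none of the 20 (edgeR, lowest adjusted p 0.597, with 6 at an unadjusted p under 0.05).

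The spread within groups differed between the compartments. Among mouse genes the median SD of log2 CPM was 0.28 in nab-paclitaxel tumours and 0.45 in vehicle tumours, and 26.8% of genes had the larger SD with nab-paclitaxel, against 66.9% of human genes. Vehicle 2 lay farthest from the other vehicle libraries in mouse genes, with a median absolute log2 difference of 0.498, and without it the vehicle SD was 0.35 and the share 39.0%. Mouse totals were lower in vehicle 1, 3 and 4, at 5.21 to 6.38 M counts, than in any treated library, and the part of depth in this spread was not tested. Without vehicle 2 edgeR called 2 mouse genes higher and 2 lower.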

How the data were processed

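The authors deposited raw counts, as 1 matrix of human and 1 of mouse Ensembl gene IDs over the same 16 libraries, 4 per group. Per the submitters' processing notes, Trimmomatic 0.36, HISAT2 2.04, Picard, StringTie, edgeR and the builds hg38 and mm10 were named, with no role or order. The sources used here do not give how reads were divided between the species, the handling of duplicates and strand, or the annotation. Reads given to the wrong species would move counts between the matrices with the share of mouse RNA.

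Each matrix was tested on its own in edgeR 4.0.16 (R 4.3.3) with TMM scaling, filterByExpr at a minimum count of 10, 1 mean per group over all 16 libraries and the quasi-likelihood F test, two-sided. P-values were adjusted by Benjamini-Hochberg across every gene tested of a species, and the threshold was 0.05. The standard error was taken as the fitted log2 change over the root of F. CPM used TMM-scaled library sizes, and log2 CPM carry a prior count of 2. Alternatives included DESeq2 1.42.0 and limma 3.58.1 (voom with quality weights).

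The comparison, the rules and the 58 gene lists were chosen with earlier results of these data known. The lists could not be applied, because 0 human and 0 mouse IDs were paired with a symbol by the files or the RefSeq table at hand. The rule for genes took all past the threshold in human and, since none passed in mouse, the 10 lowest unadjusted p-values in each direction among genes averaging 5 CPM or more where they were higher, with no overlap between groups. Only 2 rising and 2 falling IDs are printed, those of the largest fitted changes with such a mean. Whether any of these genes shares reads with a near-identical copy or an overlapping gene was not assessed. Libraries of a group were not repeats of each other: the chi-square per degree of freedom was at least 45.0 in human and 24.9 in mouse genes. The replicate numbers did not pair the libraries. Intervals and limits for counts cover counting error only.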

Additional observations from a re-analysis of the deposited data

Results flagged for a closer look

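In groups of 4 libraries, a library was marked when its gap to the nearest other, as a share of the group's range, exceeded Dixon's 95% critical value. Of 128 groups examined 7 were marked, and chance marks about 1 in 20. Of these, 3 came from genes with counts in only 1 library of the group, each with a gap of 1: vehicle 2 in rise 3, vehicle 4 in rise 8 and nab-paclitaxel 4 in fall 1. Nab-paclitaxel 1 was low in rise 13, with a gap of 0.920. In the host, vehicle 1 was high in lower 2, with a gap of 0.906. Vehicle 2 had the highest mouse total of its group, with a gap of 0.873. Nab-paclitaxel 1 had the most mouse genes over 2-fold above vehicle in its group, 1518 against 1094 to 1097 in the other treated libraries, with a gap of 0.993.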

How the results depend on the processing

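Against 30 human genes with all libraries, DESeq2 called 1441, voom with quality weights 599, edgeR without a filter 89, with the mouse share as covariate 17 and without nab-paclitaxel 1 and 4 together 2. Against 0 mouse genes, DESeq2 called 221, RLE scaling, no filter and a filter at 5 CPM 2 each, and voom and the covariate 1 each. Against 21 human genes changed the same way with and without phenelzine, DESeq2 gave 738, voom 51, no filter 60, the covariate 2 and fits of only the 2 groups compared 0. Leaving out 1 library at a time gave 0 to 703 human genes, 0 to 4 mouse genes and 0 to 262 changed the same way; the highest were without nab-paclitaxel 2, vehicle 2 and nab-paclitaxel 2. The cause of these differences was not tested. With the replicate number as a block, 0 human genes (lowest adjusted p 0.0699), 0 mouse genes and 0 changed the same way passed in edgeR, but the numbers did not pair the libraries: same-numbered libraries deviated with correlations of -0.04 to 0.07 in human and -0.15 to -0.01 in mouse genes, and 1 of 4 and 0 of 4 correlated best with their own number. RLE scaling, the robust fit, a filter at 5 CPM and, for the main comparison, only the 2 groups kept the human counts within 1.5 times, though not always the genes: the fit of only the 2 groups called 27, of which 14 (9 rises and 5 falls) were among the 30, and the filter at 5 CPM called 39, of which 22 were. No human or mouse gene described above reversed under any of these alternatives. None of them overlapped between the groups compared, so a reversal was hardly possible. Genes at or near 0 in one group rest on few counts there, and mouse totals were lower in vehicle 1, 3 and 4 than in any nab-paclitaxel library. The part of depth in these results was not tested.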

Other observations

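In the host, 33 mouse IDs were at 0 in every vehicle library and had a count in every nab-paclitaxel library, and 6 showed the reverse. Of the 33, 4 averaged at least 1 CPM with nab-paclitaxel, and of the 6, 1 averaged at least 1 CPM with vehicle. Mouse totals were lower in vehicle 1, 3 and 4 than in every nab-paclitaxel library, so a 0 there rests on fewer counts.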
